A study of Mus musculus with 12 samples.

Results

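Neutrophils store antimicrobial proteins in granules that are filled at successive steps of maturation. The 10 genes described here are 4 genes of primary granule proteins (Elane, Mpo, Prtn3 and Ctsg), 4 of secondary granule proteins (Camp, Ltf, Ngp and Lcn2) and the alarmin pair S100a8 and S100a9. They were chosen by name, as every probe set of the array whose only gene symbol was one of the 10. Each gene had 1 such probe set, so they are 10 of 19935 genes on the array. Of these 10, 9 lay above the filter on dim genes, which kept the 9967 genes whose mean over all arrays exceeded an intensity of 182. Ctsg lay below it, and its fitted values come from a fit of all 19935 genes.

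The study compared hematopoietic stem cells (HSCs) from E2-treated males, oil-treated males, E2-treated females and oil-treated females, each group with 3 biological replicates from 3 mice and 1 array each. E2 is estradiol, the main estrogen, given under the skin at 2 µg in 100 µL of corn oil, and the control mice received 100 µL of corn oil alone. All mice were young adults of 2 to 3 months, with no strain or duration of treatment stated in the labels. The sort took lineage- cells that were c-kit+, Sca-1+, CD150+ and CD48-, in lots of 5000 to 7000 cells, so a few granulocytic cells and a low transcript level in many stem cells cannot be told apart in such a bulk sample. Array medians lay between 143 and 159. Among the defining markers of HSCs, Kit read 1819.9 to 2756, Procr 549.8 to 923 and Slamf1 349.9 to 686 over the 12 arrays, while Cd48, which the sort selects against, read 62.8 to 116.

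Primary granules, also called azurophil granules, form first, at the promyelocyte stage, and carry myeloperoxidase and serine proteases. Secondary or specific granules form later, at the myelocyte stage, and carry iron-binding and antimicrobial proteins. The calcium-binding proteins S100A8 and S100A9 pair as calprotectin, are abundant in the cytosol of neutrophils and act as alarmins when released. In granulopoiesis these genes are switched on by transcription factors that include PU.1, RUNX1 and the C/EBP family, among which C/EBP epsilon is needed for the secondary granule genes.

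The promoters of 6 members are shown because the groups of letters known to be bound by PU.1 and C/EBP fell differently among them. They are the 250 bases before the annotated start, from RefSeq (build GRCm38.p6, all 10 members matched), written 5′ to 3′ along the gene. Capitals mark GAGGAAGT, a PU.1 sequence, and TTGCNNAA, a C/EBP sequence, in either orientation, and in S100a9 also TGTGGT, a RUNX sequence, in the opposite orientation. The Elane promoter is chr10:79886062-79886311 on the plus strand, that of Prtn3 chr10:79879417-79879666 on the plus strand and that of Mpo chr11:87793534-87793783 on the plus strand. The Ngp promoter is chr9:110419558-110419807 on the plus strand, that of S100a8 chr3:90668821-90669070 on the plus strand and that of S100a9 chr3:90695722-90695971 on the minus strand.
Elane: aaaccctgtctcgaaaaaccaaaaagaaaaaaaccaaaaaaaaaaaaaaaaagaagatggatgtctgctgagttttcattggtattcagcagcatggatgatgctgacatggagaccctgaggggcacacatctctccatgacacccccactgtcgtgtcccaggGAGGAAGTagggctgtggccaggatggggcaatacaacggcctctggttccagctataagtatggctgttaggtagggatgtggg
Prtn3: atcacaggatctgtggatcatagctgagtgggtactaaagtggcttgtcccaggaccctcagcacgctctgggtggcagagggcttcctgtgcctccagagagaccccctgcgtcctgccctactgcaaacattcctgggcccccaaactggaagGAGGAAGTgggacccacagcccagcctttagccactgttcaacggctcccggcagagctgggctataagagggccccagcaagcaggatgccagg
Mpo: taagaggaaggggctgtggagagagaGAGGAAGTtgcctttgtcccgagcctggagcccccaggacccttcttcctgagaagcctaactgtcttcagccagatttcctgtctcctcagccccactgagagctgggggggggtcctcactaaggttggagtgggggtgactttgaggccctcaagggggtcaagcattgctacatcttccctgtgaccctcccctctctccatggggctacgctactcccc
Ngp: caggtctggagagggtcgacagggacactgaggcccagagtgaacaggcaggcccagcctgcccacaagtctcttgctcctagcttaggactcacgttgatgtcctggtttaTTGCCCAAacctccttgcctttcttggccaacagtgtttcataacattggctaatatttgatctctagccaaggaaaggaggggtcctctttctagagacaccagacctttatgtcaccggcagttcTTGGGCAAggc
S100a8: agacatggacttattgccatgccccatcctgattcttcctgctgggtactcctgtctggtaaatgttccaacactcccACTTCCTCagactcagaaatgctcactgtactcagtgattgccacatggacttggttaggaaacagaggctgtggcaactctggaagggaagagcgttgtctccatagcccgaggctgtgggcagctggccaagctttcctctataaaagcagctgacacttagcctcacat
S100a9: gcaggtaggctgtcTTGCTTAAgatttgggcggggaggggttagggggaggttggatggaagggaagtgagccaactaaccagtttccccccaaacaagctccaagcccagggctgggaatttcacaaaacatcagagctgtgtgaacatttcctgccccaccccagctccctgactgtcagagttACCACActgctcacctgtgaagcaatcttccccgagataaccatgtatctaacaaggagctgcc

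GAGGAAGT was found in 4 of the 10 member promoters, those of Elane, Prtn3, Mpo and S100a8, and in 2.44% of 32851 promoters of the same length in the table. It began 85 bases before the start in Elane, 95 in Prtn3 and 224 in Mpo, and the match in S100a8 was in the opposite orientation, 172 bases before the start. TTGCNNAA was found in Ltf, Lcn2, S100a9 and, at 2 places, in Ngp, and in 9.56% of all promoters. TGTGGT was found in Ctsg and S100a9, and in 14% of all promoters, and Camp held none of the 3. No match overlapped another. A match is a run of letters in this window and not a measured site.

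Mpo, which encodes the peroxidase that makes hypochlorous acid in primary granules, read 77.2, 354 and 160.2 on replicates 1 to 3 of the E2-treated males, against 100.1, 322 and 1215 on those of the oil-treated males. In females it read 267, 375 and 1059.9 under E2, against 2775, 388 and 563 under oil. The replicates of 1 group thus lay up to 12.1-fold apart, among the oil-treated males, and the arrays of E2 overlapped those of oil in males and in females. Elane, the gene of neutrophil elastase, read 144, 180.2 and 98.0 under E2 in males, against 127, 156 and 346 under oil. Female arrays read 158, 252 and 529 under E2, against 807, 198 and 223 under oil. Its highest values stood on the same arrays as those of Mpo: replicate 2 of the E2-treated males, replicate 3 of the oil-treated males, replicate 3 of the E2-treated females and replicate 1 of the oil-treated females.

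Ctsg, the gene of the serine protease cathepsin G, read 38.6, 82.9 and 73.1 under E2 in males, against 69.0, 71.5 and 243 under oil. In females it read 79.9, 73.4 and 145 under E2, against 572, 83.9 and 111 under oil. It exceeded the filter value of 182 only on replicate 3 of the oil-treated males and replicate 1 of the oil-treated females, where Mpo and Elane were also highest in their groups. Prtn3, the gene of the serine protease proteinase 3, varied far less. It read 1100.3, 992 and 1103 under E2 in males, against 1257, 1418 and 1241 under oil. The females read 1187, 1099 and 1332 under E2, against 1689, 1420.3 and 1329 under oil. Its E2 and oil arrays did not overlap in males, where E2 was the lower, and they overlapped in females. The arrays of the other 9 members overlapped in both sexes. Of the 9967 genes tested, 26.5% did not overlap in males, 13% with E2 below oil. In females 20.1% did not overlap, 13.1% with E2 below oil, and 4.88% had E2 below oil in both sexes.

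Prtn3 and Elane are neighbours, with 0 protein-coding genes between them in the RefSeq gene table, yet their arrays differed in spread. The highest Prtn3 value was 1.70 times the lowest over the 12 arrays, whereas the highest Elane value was 8.23 times the lowest and that of Mpo 36.0 times. GAGGAAGT lies in both promoters, in the same orientation.

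**Figure D1:**
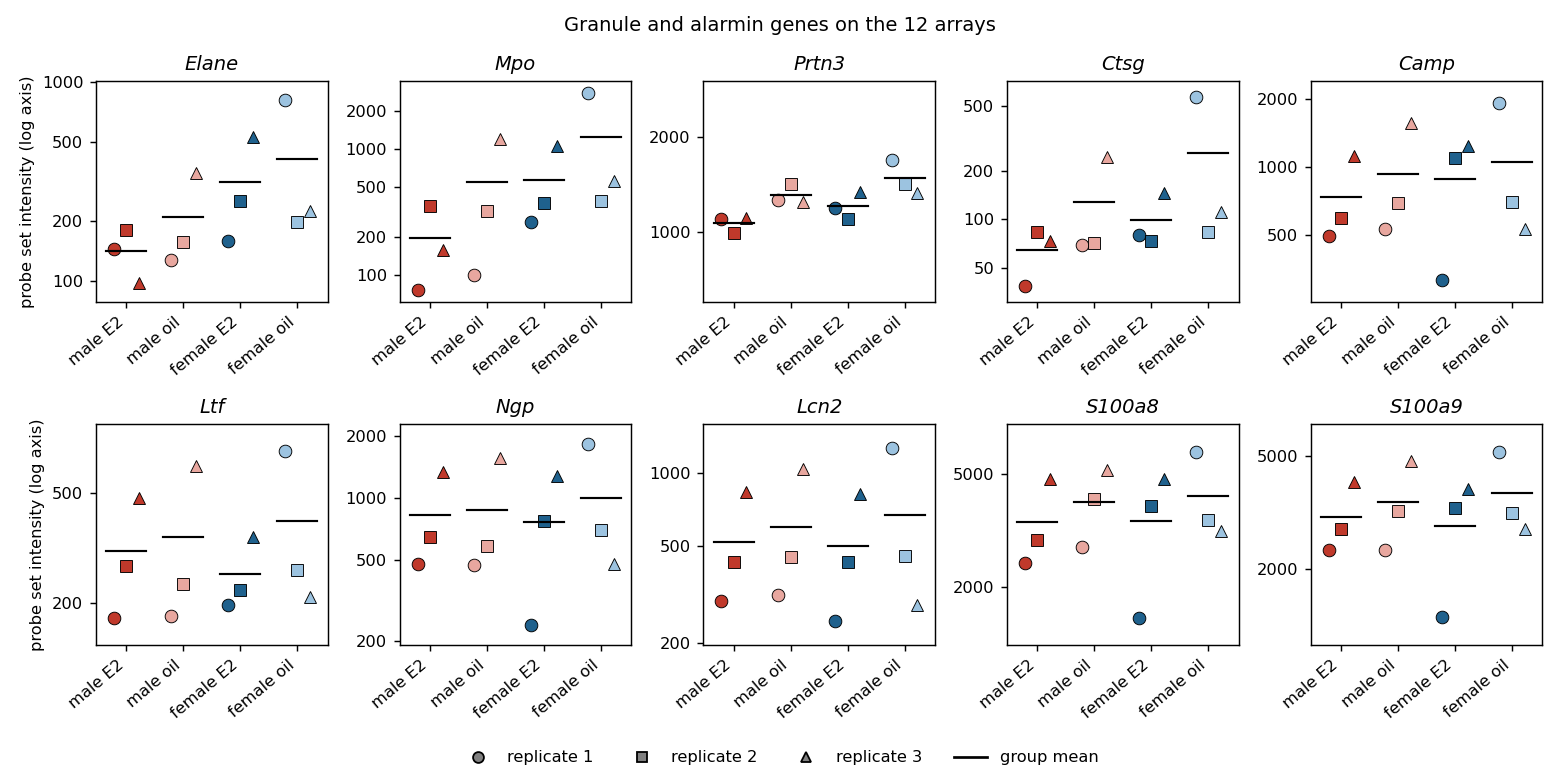
Probe set intensity of each of the 10 genes (log axis) on the 3 arrays of the E2-treated males, oil-treated males, E2-treated females and oil-treated females; symbols stand for replicate numbers and bars for group means. Apart from Prtn3 in males, the E2 arrays overlap the oil arrays of the same sex, and replicate 1 of the oil-treated females gives the highest value of every gene, with Mpo at 2775 and S100a8 at 6005.

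The secondary granule genes moved as a block from array to array. Camp, the gene of the cathelicidin precursor, read 494, 595 and 1124 under E2 in males, against 533, 695 and 1559.8 under oil. Female values of Camp were 318, 1095 and 1245 under E2, against 1918, 699 and 534 under oil. Ngp, a cystatin-related granule protein gene of the mouse, read 477, 649 and 1340.1 under E2 in males, against 469.8, 582 and 1572 under oil. Replicate 3 was the highest in both male groups for both genes. In females Ngp read 240.02, 772 and 1285 under E2, against 1831, 699 and 476 under oil.

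Lcn2, whose product lipocalin 2 binds bacterial iron carriers, read 297, 432 and 834 under E2 in males, against 314, 452 and 1033 under oil. Female values of Lcn2 were 246, 432 and 819.95 under E2, against 1265, 457 and 288 under oil. Ltf, the gene of the iron-binding protein lactoferrin, read 175, 271 and 481 under E2 in males, against 179, 234 and 627 under oil. All 4 secondary granule genes had the same highest array in each of the 4 groups. Ltf in females read 197, 223 and 346 under E2, against 710.4, 263 and 209.99 under oil.

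S100a8 read 2437, 2941 and 4804 under E2 in males, against 2771, 4078 and 5172 under oil. In females it read 1561, 3849 and 4822 under E2, against 6005, 3445 and 3145 under oil. S100a9 read 2326, 2762 and 4064 under E2 in males, against 2333, 3214 and 4813 under oil, and 1350.5, 3281 and 3842 under E2 in females, against 5176, 3139.8 and 2777 under oil. The alarmin genes were lowest on replicate 1 of the E2-treated females and highest on replicate 1 of the oil-treated females. They had the same highest array in every group as the secondary granule genes, with a smaller span, the highest value of S100a8 being 3.85 times the lowest and that of S100a9 3.83 times.

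Set against each group's own mean, the arrays ranked alike for most members. Replicate 3 was the highest array for 7 of 10 members among the E2-treated males, for 9 among the oil-treated males and for 10 among the E2-treated females. Replicate 1 was the highest for 10 of 10 members among the oil-treated females. The mean deviation of the 10 genes from their group means, on the log2 scale, was 1.05 on replicate 1 of the oil-treated females, 0.88 on replicate 3 of the oil-treated males and 0.72 on replicate 3 of the E2-treated females. The lowest was -0.76, on replicate 1 of the E2-treated females. In the E2-treated males, Mpo, Elane and Ctsg were highest on replicate 2, by 1.11, 0.40 and 0.42 over the group mean, while the secondary and alarmin genes were highest on replicate 3, and Elane was lowest on that array at -0.47. Prtn3 was highest on replicate 3 there, and in the oil-treated males it was highest on replicate 2 and lowest on replicate 3, at -0.07.

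**Figure D2:**
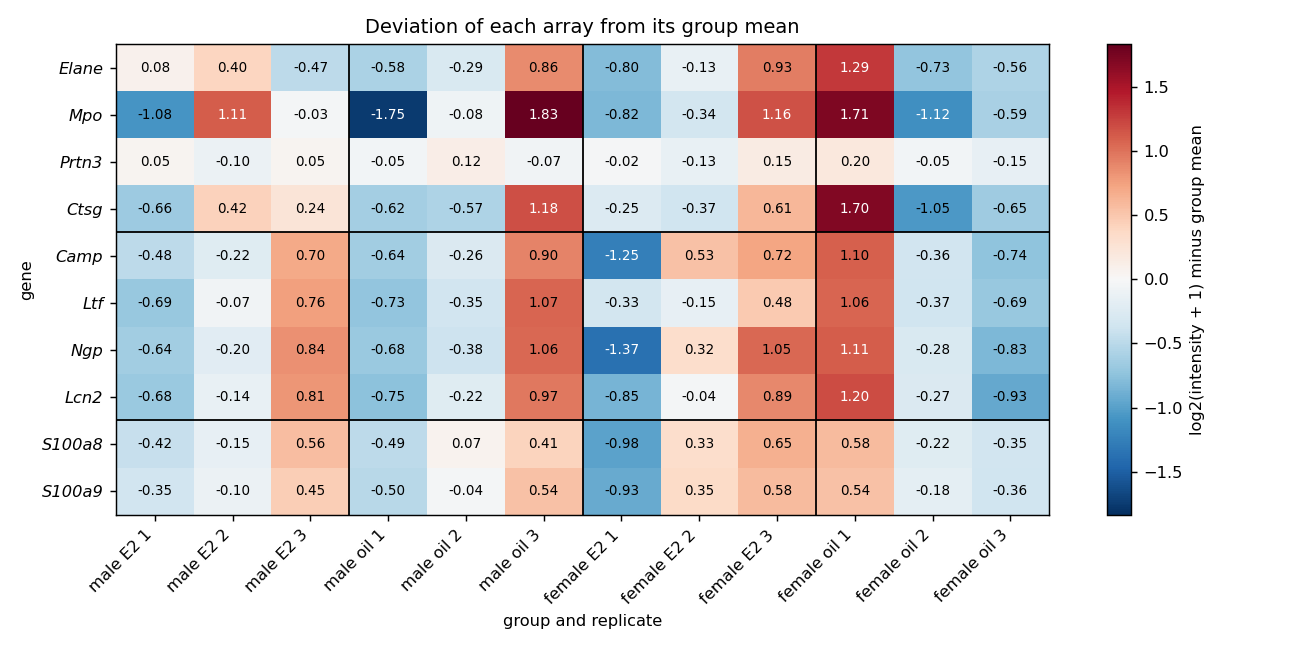
Difference of log2(intensity + 1) from the group mean for each gene (rows) and array (columns), red above and blue below the mean. Replicate 3 of the oil-treated males, replicate 3 of the E2-treated females and replicate 1 of the oil-treated females are red for nearly all genes, replicate 1 of the E2-treated females is blue, and Prtn3 stays between -0.15 and 0.20.

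The correlation of these deviations over the 12 arrays is a description, since the genes were proposed with their covariation known. Each point is 1 array, and all genes of a point share its sort, amplification and hybridisation. Over the 45 pairs of members the median Pearson r was 0.77 (Spearman rho 0.81), with a range of 0.34 to 0.99. For comparison, among all pairs of 1994 tested genes, taken at regular steps through the table, the median r was 0.01, the 95th percentile 0.66, and 0.166% exceeded 0.9. S100a8 and S100a9 had an r of 0.99, and 0.98 without the 2 arrays farthest from the median. The 6 pairs of secondary granule genes had r from 0.87 to 0.99, and 0.79 to 0.98 without the 2 farthest arrays. The closest of them were Camp and Ngp, at an r of 0.99.

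The alarmin genes followed the secondary granule genes more closely than they followed the primary ones, in the values of r. The 8 pairs of a secondary granule gene and an alarmin gene had r from 0.80 to 0.98, and the 6 pairs of Elane, Mpo or Ctsg with an alarmin gene had r from 0.64 to 0.74. Elane, Mpo and Ctsg among themselves had r from 0.86 to 0.91. The 9 pairs of Prtn3 with the other members had r from 0.34 to 0.53, and without the 2 farthest arrays these lay between -0.13 and 0.28. The pair with Mpo had an r of 0.34 over all arrays and 0.28 without replicate 3 of the oil-treated males and replicate 1 of the oil-treated females. The other 8 pairs lay between -0.13 and 0.13 without replicate 1 of the oil-treated females and replicate 3 of the E2-treated females. Since different arrays were left out, the change of r cannot be compared between Mpo and these 8. The difference between these sets of r was not tested.

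**Figure D3:**
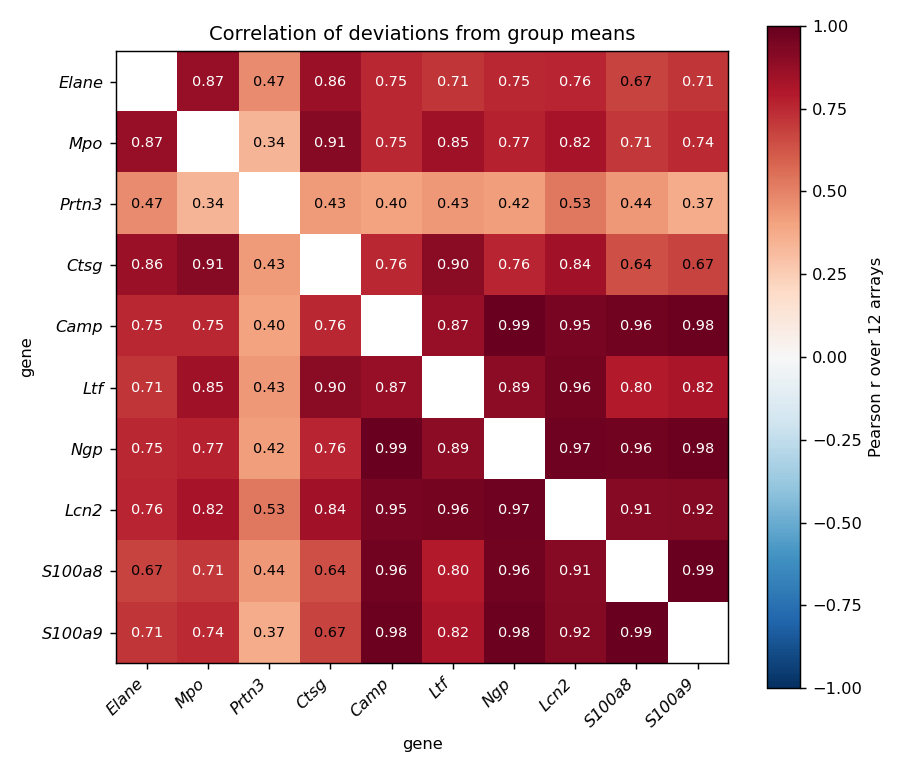
Pearson r over 12 arrays between the deviations of each pair of the 10 genes from their group means, from -1 (blue) to 1 (red). The secondary granule and alarmin genes form a dark block with r of 0.80 to 0.99, Elane, Mpo and Ctsg form another at 0.86 to 0.91, and the row of Prtn3 is pale, at 0.34 to 0.53.

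The spread of these genes was wide beside that of other genes. This too is a description, since the genes were proposed with their covariation between these arrays known. The residual SD after removal of the group means, on the log2 scale, was 1.39 for Mpo, which ranked 1 of the 9967 tested genes. Ngp at 1.00 ranked 2, Lcn2 at 0.91 ranked 4, Camp at 0.89 ranked 5, Elane at 0.84 ranked 6 and Ltf at 0.79 ranked 7. S100a8 at 0.60 ranked 13 and S100a9 at 0.58 ranked 15. The median over tested genes was 0.14 and the 99th percentile 0.37. Prtn3, at 0.13, stood at the 48.1th percentile. Within the 15 genes of largest residual SD, the 7 that are not members were Car1, Thbs1, Snora16a, Scarna13, Eif4a3l1, Mir99a and Itgam, named here after their values had been seen. Car1, an erythroid carbonic anhydrase, correlated with the mean deviation of the secondary granule genes at an r of 0.73, Itgam at 0.63 and Thbs1 at 0.40. For Eif4a3l1 the r was 0.09, and for the small RNA genes Snora16a, Scarna13 and Mir99a it was -0.12, -0.22 and 0.11.

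By the rule that named the 5 genes nearest to each class, the mean of the secondary granule genes was matched most closely by Wfdc21 at an r of 0.98, Tyrobp at 0.97, Nudcd3 at 0.95, Syne1 at 0.95 and Ibtk at 0.94, over 12 arrays of group-centred values. The mean of the alarmin genes was nearest to Ibtk at 0.97, Tyrobp at 0.94, Syne1 at 0.94, Trappc3 at 0.92 and Rfesd at 0.92. Of these, Wfdc21 ran from 203 to 586 and Tyrobp from 224 to 546, while Ibtk ran only from 489.9 to 539.8. The mean of the primary granule genes was nearest to Glo1 at 0.91, Dnaja3 at 0.88, Mtarc2 at 0.88, Elac2 at 0.87 and Chfr at 0.87. These 5 had residual SDs of 0.09 to 0.11, below the median of tested genes, so their likeness is one of shape and not of size. The genes named for each class are the highest r found in a search through the genes above the filter. Among pairs of tested genes 0.166% exceeded 0.9, so some high r arise in such a search for any profile. Whether the named genes exceed that was not tested.

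Markers of mature granulocytes were mostly highest on the same arrays as the members, except in the E2-treated males. Of 8 such markers (Ly6g, Cd177, Mmp8, Mmp9, Cxcr2, Retnlg, Csf3r and Itgam), 7 were highest of their group on replicate 3 of the oil-treated males, 7 on replicate 1 of the oil-treated females and 6 on replicate 3 of the E2-treated females. On these arrays 32.7%, 36.6% and 30.4% of all tested genes were highest of their group. In the E2-treated males, replicates 1 and 3 were highest for 4 each, while 8 members were lowest on replicate 1. The summed intensity of the 8 markers was 1841 to 2804 in E2-treated males, against 1429 to 2109 in oil-treated males, and 1710.2 to 3428 in E2-treated females, against 1448 to 2052 in oil-treated females. The higher sums under E2 rested on Itgam. Without it the other 7 markers summed to 1196 to 1636 in E2-treated males, against 1332 to 1946 in oil-treated males, and 1121 to 1573 in E2-treated females, against 1261 to 1852 in oil-treated females, so the E2 sums were the lower in their range, with overlap in both sexes. Csf3r, at 521 to 954, was the largest part of each of these sums. In the oil-treated males it was highest on replicate 1, where 9 members were lowest. Cxcr2 was higher with E2, by 0.78 in males and 0.58 in females on the log2 scale, and the rest of the 7 were lower in both sexes. None of the 7 was called. Without Itgam, 6 of 7 markers were highest on replicate 3 of the oil-treated males, 6 on replicate 1 of the oil-treated females and 5 on replicate 3 of the E2-treated females. No marker read 0, and 6 of the 8 had means below the filter. Cd177, Mmp8, Mmp9, Retnlg and Itgam also belong to the list of further secondary and tertiary granule genes below. Cxcr2 and Csf3r also belong to that of receptors. Ly6g, the defining surface marker of mouse neutrophils, read 37.2 to 135 over the 12 arrays, and its part in the spread of the members was not tested.

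The granulocyte progenitor list held Ms4a3, Cd48, Fcgr3, Cd34, Flt3, Cebpe and Gfi1, of which Flt3 and Cd34 are not particular to such progenitors. Of these 7 genes, 5 were highest on replicate 1 of the oil-treated females. On replicate 2 of both male groups 4 each were highest, and 4 on replicate 1 of the E2-treated females. Of all tested genes, 36.6% were highest on that oil-treated female array and 42.6% on that E2-treated female array. On replicate 2 it was 35.8% in the E2-treated males and 32.4% in the oil-treated males. Their summed intensity was 2217 to 2316 in E2-treated males, against 2579 to 3044 in oil-treated males, and 2093 to 2278 in E2-treated females, against 2546 to 3245 in oil-treated females. Cd34, at 1474 to 2272, was the largest part of each of these sums. The lower sums under E2 thus cannot be read as a fall of all 7 markers. Of the 7, only Flt3 and Cd34 lay above the filter. Both fell with E2, by 1.10 and 0.29 on the log2 scale (limma adjusted p = 8.17e-05 and 0.0257). The other 5 were also below 0 in the average but not called, with limma adjusted p from 0.289 to 0.638 in the fit of all genes. The calls of Flt3 and Cd34 thus do not show a fall of granulocyte progenitor genes as a group. Ms4a3, a gene of granulocyte and monocyte progenitors, read 406 on replicate 1 of the oil-treated females and 62.3 to 136 on the others. The 11 monocyte and macrophage markers all had means below the filter, and their sum was 862 to 924 in E2-treated males, against 997 to 1027 in oil-treated males, and 936.5 to 1127 in E2-treated females, against 921 to 1068 in oil-treated females. These markers were split. In the average Ccr2 rose by 0.58 (limma adjusted p = 0.0449 in the fit of all genes), and no other was called. Csf1r, Cd14, Fcgr1 and Adgre1 were also above 0, and the rest were below it. In males C1qb was at -0.76 and Ccr2 at 0.49, neither called. The 6 markers of eosinophils, basophils and mast cells also had means below the filter, with sums of 391.7 to 613 in E2-treated males, against 448 to 473 in oil-treated males, and 367 to 1187 in E2-treated females, against 450.2 to 1645 in oil-treated females. Prg2, the eosinophil major basic protein gene, read 1078 on replicate 1 of the oil-treated females, 752 on replicate 3 of the E2-treated females, 269 on replicate 3 of the E2-treated males and 54.3 to 116 elsewhere. It was the largest part of the sums on these arrays. Epx read 216, 145 and 94.2 on them, and 52.5 to 71.4 elsewhere. Mcpt8, Cpa3, Ms4a2 and Gzmb read 34.5 to 140.5 over all arrays. In the average, Cpa3 was at -0.61 and Mcpt8 at -0.68 (limma adjusted p = 0.00891 and 0.0498 in the fit of all genes). Prg2, Epx, Ms4a2 and Gzmb were not called, at -0.14, 0.04, -0.05 and 0.14. The part of these cells in the spread of the members was not tested.

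The comparison of E2 with oil asks how estradiol changes gene expression in HSCs. All 10 members had fitted log2 fold changes below 0 in either sex and in the average of both, but only Prtn3 passed the test, and only in the average. In limma's model 0 of 9 tested members passed in males, where 1.43% of tested genes were called (0.572% higher and 0.863% lower). In females 0 of 9 passed, where 3.56% were called (0.813% higher and 2.75% lower). At an unadjusted p under 0.05 there was 1 in each sex, Prtn3. These shares moved with the arrays used: the 143 genes called in males became 53 to 328, and the 355 called in females 122 to 549, when 1 array was left out. Averaged over the sexes, 1 of 9 was called, lower, beside 5.78% of tested genes called lower, 3.12% called higher and 8.9% in either direction. The members other than Prtn3 varied together between arrays, and all 10 share the same control arrays. A common sign over the members is thus not independent evidence of a direction.

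Prtn3 averaged 1065 ± 63.5 in E2-treated males and 1305 ± 98.0 in oil-treated males, and 1206 ± 118 in E2-treated females and 1479.5 ± 187 in oil-treated females (SD, n = 3 each). It fell by 0.29 ± 0.08 on the log2 scale with E2, averaged over the sexes (SE; limma adjusted p = 0.0315), with the same fitted value of -0.29 in males (adjusted p = 0.221) and in females (adjusted p = 0.157). The call was narrow. Among the settings that ended it, it had an adjusted p of 0.0789 without the filter on dim genes and 0.0513 with each array centred on its median. It also ended without any 1 of oil-treated male replicate 2, E2-treated male replicates 1, 2 and 3, oil-treated female replicates 1 and 2 or E2-treated female replicate 2, with adjusted p from 0.0519 to 0.0842 and log2 fold changes from -0.30 to -0.24. Flt3 and Cd34 of the progenitor list, given above, fell in the same average. Of 7 stem cell markers on the array, Kit fell by 0.32 and Procr by 0.47 (limma adjusted p = 0.0023 and 0.000537). The rest were not called, with Slamf1 at -0.27, Fgd5 at -0.18, Hlf at -0.01, Tek at 0.003 and Mecom at 0.13. The part of Flt3, Cd34, Kit and Procr in the fall of Prtn3 was not tested.

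For the other 9 members the spread between arrays left wide intervals. Mpo averaged 197 ± 142 in E2-treated males and 546 ± 590.1 in oil-treated males, and 567 ± 430.0 in E2-treated females and 1242 ± 1330.5 in oil-treated females (SD, n = 3 each). S100a8 averaged 3394 ± 1247 in E2-treated males and 4007 ± 1202 in oil-treated males, and 3411 ± 1674 in E2-treated females and 4198 ± 1572 in oil-treated females. In both genes and both sexes the means differed by less than the SD of the oil-treated group. Their averaged log2 fold change was -0.94 for Mpo, with a 95% confidence interval from -2.29 to 0.40, and -0.83 for Ctsg, from -1.80 to 0.15. Elane was at -0.37, from -1.18 to 0.44. The 4 secondary granule genes lay close together, at -0.25 for Camp, -0.26 for Ltf, -0.23 for Ngp and -0.23 for Lcn2, with intervals that reached from -1.20 to 0.73. S100a8 at -0.32 (from -0.91 to 0.27) and S100a9 at -0.31 (from -0.88 to 0.25) had the narrowest intervals of these 9. Adjusted p-values of the 9 ran from 0.385 to 0.801, so neither a change nor its absence is shown.

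The median log2 fold change of the 10 genes was -0.30 averaged over the sexes, -0.26 in males and -0.42 in females, beside medians over all tested genes of -0.01, -5.06e-05 and -0.02. The median standard error of the 10 was 0.39 for the average, against 0.08 over all tested genes. Several values changed sign when 1 array was left out. Without replicate 3 of the oil-treated males, the values in males turned to 0.51 for Ngp, 0.47 for Ltf, 0.33 for Lcn2, 0.18 for Camp and 0.12 for S100a9. Without replicate 1 of the E2-treated males, Ngp was at 0.30, Ltf at 0.28, Lcn2 at 0.19 and S100a9 at 0.02, and without replicate 2 of that group Ngp was at 0.08. Without replicate 1 of the oil-treated females, the values in females turned to 0.39 for Elane, 0.31 for Camp, 0.29 for Lcn2, 0.10 for Ngp, 0.07 for Ltf and 0.02 for Mpo. Without replicate 1 of the E2-treated females, Camp was at 0.38, Ngp at 0.23, Elane at 0.15, Lcn2 at 0.11 and S100a8 at 0.10. The averages of the 4 secondary granule genes turned to between 0.00383 and 0.11 without 1 of these arrays, oil-treated male replicate 3, oil-treated female replicate 1 or E2-treated female replicate 1. None of these values passed the test.

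**Figure D4:**
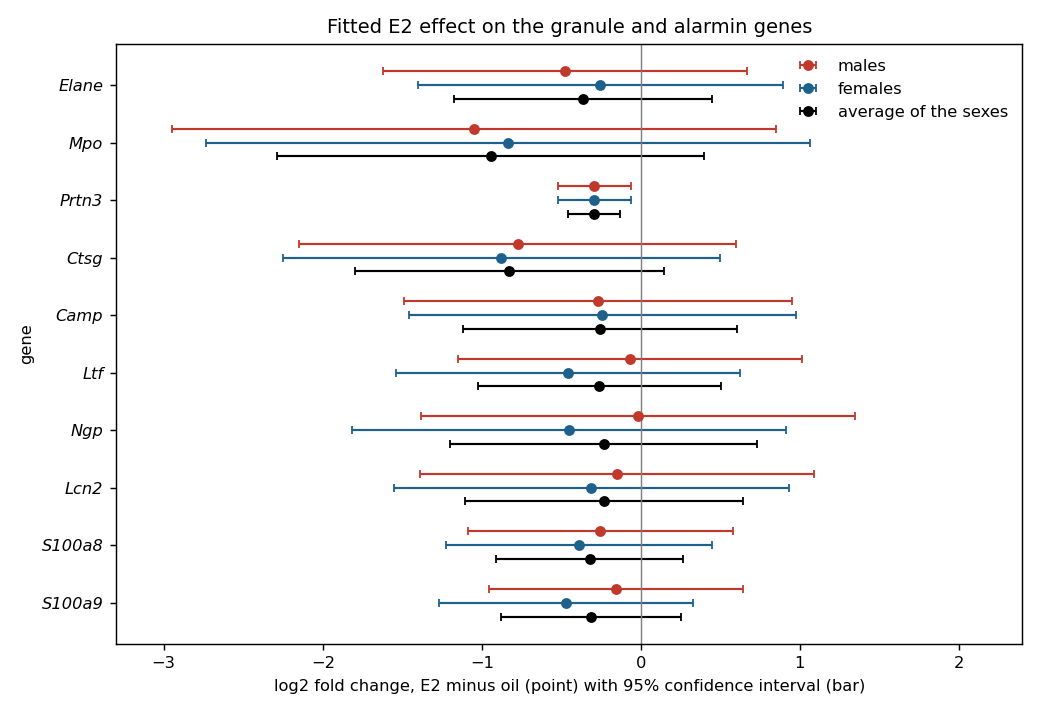
Fitted log2 fold change, E2 minus oil, of each gene in males (red), females (blue) and averaged over the sexes (black), with 95% confidence intervals from limma. All points lie below 0, and the intervals of all genes but Prtn3 cross 0, that of Mpo in males reaching from -2.95 to 0.85.

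The sexes were compared directly. No member was called for a difference between the sexes in its response to E2 (0 of 9 by limma, 0 at an unadjusted p under 0.05, with 0.01% of tested genes called), and the difference of the Prtn3 responses, female minus male, was 0.000327 with a 95% confidence interval from -0.33 to 0.33. Under oil 0 of 9 members were called between females and males (0 at an unadjusted p under 0.05, with 0.0401% of tested genes called), and under E2 also 0 of 9 (0 at an unadjusted p under 0.05, with 0.01% called). The largest fitted differences were in Mpo and Elane. For Mpo the difference, female minus male, was 1.53 on the log2 scale under E2 (95% confidence interval from -0.37 to 3.43) and 1.31 under oil (from -0.59 to 3.21). For Elane it was 1.01 under E2 (from -0.14 to 2.16) and 0.79 under oil (from -0.36 to 1.93).

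Genes of other granule proteins were taken from lists. Of 12 further primary granule genes, 11 were on the array, 8 lay above the filter and 0 were called in the average (0 in males, and Ctsd lower in females at -0.38, adjusted p = 0.0471). Their highest by mean level were Srgn, the granule proteoglycan gene, at -0.01, and Cd63, a granule membrane tetraspanin gene, at -0.12. Lyz2, the lysozyme gene, was at -0.33 (adjusted p = 0.0652). Of 23 further genes of secondary and tertiary granules, 21 were on the array, 7 lay above the filter, 1 rose and 1 fell. Itgam, the CD11b chain of the granule-stored integrin, rose by 2.88 ± 0.26 (SE; adjusted p = 2.89e-05 in limma). It read 645 to 1427 in E2-treated males, against 79.3 to 163 in oil-treated males, and 589 to 1856 in E2-treated females, against 154 to 199.8 in oil-treated females. Ceacam1, an adhesion receptor gene, fell by 0.36 ± 0.10 (adjusted p = 0.0394), a call that 11 of 20 alternatives ended, with adjusted p up to 0.0906. They were quantile normalization, median centring, no filter, and each fit without 1 array of either male group or without oil-treated female replicate 1 or 2. The median averaged log2 fold change over genes above the filter was -0.0042 for the 8 primary granule genes and 0.14 for the 7 secondary and tertiary ones, beside -0.01 over all tested genes. Over all genes on the array it was -0.09 for the 11 and -0.13 for the 21, opposite in sign to 0.14, beside 0.01 over all 19935 genes.

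S100a4, another calcium-binding gene of the family, was called with E2, which S100a8 and S100a9 were not. It read 1671, 1662 and 1627 under E2 in males, against 1129, 1311 and 1142 under oil, and 2076, 2020.1 and 1925 under E2 in females, against 1142, 1145 and 1238 under oil. The groups did not overlap in either sex, and it rose by 0.62 ± 0.06 (SE; adjusted p = 3.48e-05 in limma). Of 14 other S100 genes, 7 lay above the filter, S100a4 rose, 0 fell and 6 did not pass, with a median log2 fold change of -0.08 over the 7 and -0.06 over all 14.

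Among 9 transcription factors of granulocyte development, 5 lay above the filter, 1 rose and 1 fell. Cebpa, which drives the step to granulocyte progenitors, rose by 0.80 ± 0.15 (SE; adjusted p = 0.00595). It read 399.9, 249 and 332 under E2 in males, against 198, 209 and 207 under oil, and 339, 396 and 659 under E2 in females, against 268, 221 and 207 under oil. Its E2 arrays lay above its oil arrays in both sexes. Runx1 fell by 0.26 ± 0.06 (adjusted p = 0.0117), and Spi1, the gene of PU.1, was at -0.07 (adjusted p = 0.551). Cebpe, the secondary granule factor, had a mean below the filter and read 69.5 to 163. Of 14 receptors of granulocytes and of S100A8 and S100A9, 12 were on the array, 9 lay above the filter, 0 rose and 1 fell, which was Tlr4, a receptor for the alarmin pair, at -0.42 ± 0.09 (adjusted p = 0.0136). Csf3r, the receptor for granulocyte colony-stimulating factor, was at -0.18 (adjusted p = 0.294).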

How the data were processed

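RNA of sorted HSCs from 12 samples was hybridised to 1 Affymetrix array each, and the deposited table gives an intensity on a linear scale for each of 35474 probe sets. Per the labels' protocols, cDNA was amplified with the NuGEN Ovation Pico WTA system and biotinylated. How the authors summarised and normalized the intensity values is not given in the sources used here. Of the probe sets, 21780 had 1 symbol in the platform annotation and were used, 1605 had several and 12089 none. A gene was read from its brightest probe set by mean. Genes with a mean log2(intensity + 1) above 7.52, the median of genes, were tested with limma 3.58.1 in R 4.3.3, with a mean for each group, eBayes, and Benjamini-Hochberg adjustment over 9967 genes (called at 0.05). The fit was tested on simulated data. Figures used matplotlib 3.10.9. The alternatives changed the normalization (quantile, or centring on the median), the offset (16), the filter, the choice of probe set, the variance model, array weights, the samples fitted or the replicate block, or left out each array in turn. Beside the members, the text names up to 4 called genes per list, or the 2 brightest where none was called, and the 5 genes most like each class. Lyz2, Ctsd, Spi1, Csf3r and the marker genes given with values were added after their values had been seen. The members and lists were chosen with earlier results of these data known. Intensities of different probe sets are not comparable as levels. With 3 arrays per group, precision is limited by that number.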

Additional observations from a re-analysis of the deposited data

How the results depend on the processing

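The count of members called in the averaged E2 comparison, 1 with all arrays, was 0 with median centring, 0 with no filter and 0 with the replicate block, and 0 to 1 in the fits without 1 array. Prtn3 then had adjusted p of 0.0513, 0.0789 and 0.0502, and 0.0165 to 0.0842 without 1 array. With the block 736 genes were called in that comparison, against 887 without it. The replicate numbers are shared only as numbers: same-numbered arrays of different groups correlated at -0.26 to 0.20 over genes, and an array correlated best with its own number in 9 of 36 comparisons with another group. The other 5 counts, all 0, were 0 under every alternative run. Of 1240 log2 fold changes of members under an alternative, 10 lost a call, 0 gained one, and 112 changed sign without a call in either fit. The median r between members was 0.77 with all arrays, 0.78 with quantile normalization or an offset of 16, and 0.70 to 0.88 without 1 array. Of the 100 genes with the largest residual SD, 8 were members, here and in each of 16 alternatives chosen after seeing the data. That count is a description, since the members were proposed with their covariation known. Of the called genes in the other lists, Itgam, S100a4, Cebpa, Runx1 and Tlr4 passed under all 20 alternatives. With all genes, the averaged comparison called 481 to 1147 without 1 array and 568 with no filter. In males the 143 called genes became 80 with no filter, 409 with array weights, 390 with the compared groups alone and 53 to 328 without 1 array, by over 1.5 times without any 1 male array or E2-treated female replicate 1. In females the 355 became 183, 226, 67 and 122 to 549, by over 1.5 times without any 1 oil-treated female array or E2-treated female replicate 1. Which sex had more calls thus turned with array weights and with the compared groups alone. It also turned, narrowly, without oil-treated female replicate 3, with 127 called in males and 122 in females. With median centring the female calls were 45 higher and 358 lower, against 81 and 274. Levels below 182 lie under the filter on dim genes, so fold changes of Ctsg, of Itgam and of the low arrays of Mpo and Elane are approximate.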
